A study of Cynara cardunculus with 36 samples.

Results

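RNA from hearts of the globe artichoke (Cynara cardunculus var. scolymus) cultivar Imperial Star (IS) was compared between day 14 and day 7 of cold storage, the second week of a 2-week trial. Of the 36 libraries in the series, 6 belong to this comparison, 3 replicates at day 14 and 3 at day 7, chosen by the cultivar and day in their titles. The 30 other libraries are IS at day 0 and the cultivars Opal (OP), Green Queen (GQ) and Green Globe Improved (GGI) at days 0, 7 and 14, again with 3 replicates each. All groups shared the same history up to day 0: field-grown plants given GA to bring flowering forward, mature heads picked, and 48 h at 4 °C before the first sampling. The hearts, the inner edible part of the head, were frozen in liquid nitrogen. The labels call the replicates biological and do not say whether each is 1 head or several. In what follows, a heart means the tissue of 1 replicate library, which may come from several heads.

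An artichoke head is an immature flower head that goes on respiring after harvest. Its hearts are rich in caffeoylquinic acids such as chlorogenic acid, and tissue browning is classically tied to their oxidation by polyphenol oxidases and peroxidases, alongside senescence, cell wall loosening and water loss. The stated aim of the series was to find genes behind the fast ageing of the picked head. Gene models carry an ID and no name in the files, and 0 of the 28632 IDs matched the RefSeq gene table of the species, so the changes are given by ID, level and number, and neither the tissue label nor any of these pathways could be checked against marker genes.

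The libraries held 37.6, 42.2 and 51 M reads in gene models at day 14 and 45.6, 46.3 and 54.5 M at day 7; levels are given as CPM, reads per M reads in gene models after scaling of the libraries. Reads outside gene models made up 10.1% to 13.3% of those listed in these 6 libraries. Of 40 gene models that set IS apart from all other cultivars at day 0, between 37 and 40 showed the IS state in each of the 6 libraries, against 0 to 9 in the 18 later libraries of the other cultivars. In the rest of the series, 4 day 7 libraries (OP replicate 1, GGI replicate 2, GQ replicates 2 and 3) held 30.1% to 71.0% of reads outside gene models, and the day 14 replicate 1 libraries labelled GGI and GQ carry each other's cultivar markers. The IS libraries were numbered 16 to 18 at day 14 and 28 to 30 at day 7, so library order and day cannot be told apart.

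The hearts sampled at day 14 were alike, and those sampled at day 7 were not. Over the 15960 gene models whose log2 CPM averaged 1 or more, the 3 day 14 libraries correlated with each other at r from 0.960 to 0.985. At day 7, replicates 1 and 3 correlated at 0.969, while replicate 2 correlated with them at only 0.802 and 0.828. The median standard deviation between replicates was 0.156 at day 14 and 0.343 at day 7 on the log2 scale. Day 7 replicate 2 therefore stood apart, and it was also the farthest of the day 7 libraries from day 14, with r of 0.718 to 0.787 against 0.882 to 0.930 for replicates 1 and 3. It held 13.3% of reads outside gene models, the highest share of the 6 libraries; the part of that share in what follows was not tested. The number of calls, the named gene models and the comparisons with other cultivars are also given without this library.

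How far each heart had moved was read on a scale taken from the day 14 against day 0 change of OP, GGI and GQ over 9861 gene models. On it, 0 is the mean of the IS libraries at day 0 and 1 is the mean change of the 3 other cultivars over the full storage time. IS replicates 1, 2 and 3 lay at 0.849, 0.810 and 0.684 at day 14 and at 0.563, 0.174 and 0.536 at day 7. The days did not overlap: every day 14 heart lay beyond every day 7 heart, but day 7 replicates 1 and 3 had already covered most of the distance and replicate 2 little of it. Scored in the same way, each cultivar against the others, day 14 hearts lay between 0.679 and 0.768 in OP, 0.844 and 1.17 in GGI and 0.733 and 0.939 in GQ. Their day 7 hearts lay between 0.0943 and 0.165 in OP, 0.310 and 0.457 in GGI and -0.0391 and 0.0794 in GQ. The mean step from day 7 to day 14 was 0.357 in IS, 0.608 in OP, 0.657 in GGI and 0.818 in GQ. Without IS day 7 replicate 2, the step was 0.231 in IS, 0.607 in OP, 0.655 in GGI and 0.817 in GQ. Without the 6 doubtful libraries, it was 0.378 in IS, 0.652 in OP, 0.571 in GGI and 0.739 in GQ. That fit left 1 GQ heart at day 7. Each cultivar was scored on its own gene models and against different cultivars, so the steps share no common unit. Taken without those 6 libraries, the scale put the IS hearts at 0.737 to 0.901 at day 14 and at 0.195 to 0.599 at day 7.

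**Figure D1:**
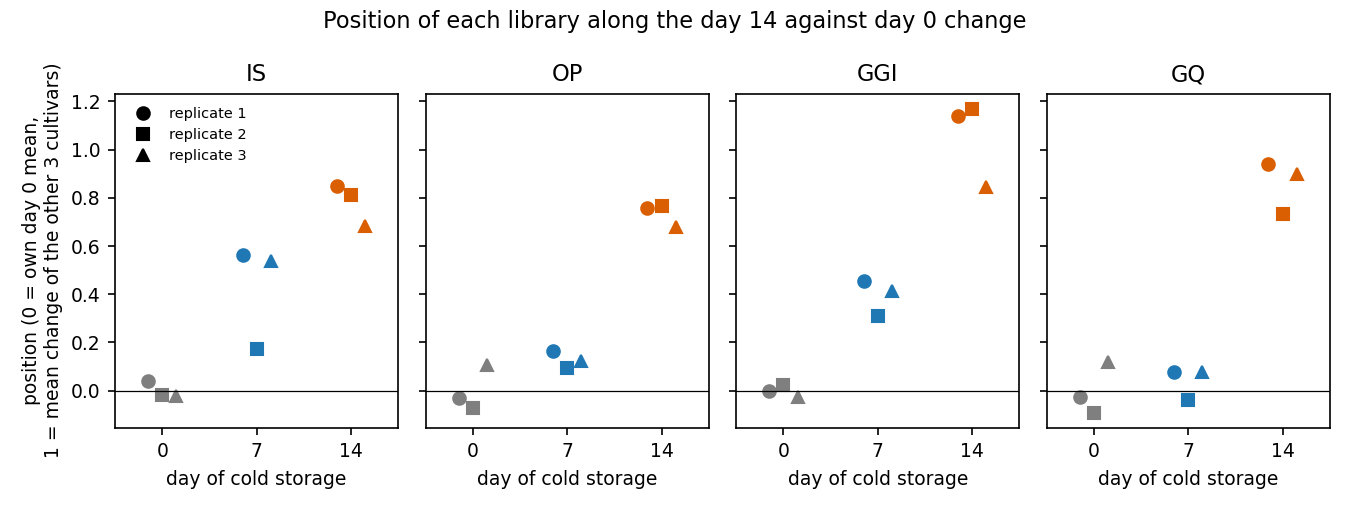
Position of every library (points, shape by replicate number) on the scale from its own cultivar's day 0 mean (0) to the mean day 14 change of the other 3 cultivars (1), by day of cold storage. IS day 7 replicates 1 and 3 lie at 0.563 and 0.536 and replicate 2 at 0.174, all below the IS day 14 hearts at 0.684 to 0.849.

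Gene by gene, counts of the 36 libraries were fitted together with edgeR's quasi-likelihood test, with p-values adjusted by Benjamini-Hochberg over the 21900 gene models tested; those under 0.05 count as called. Between day 14 and day 7 in IS, 707 gene models were called, or 3.23%. Of these 410 (1.87% of those tested) rose and 297 (1.36%) fell. The changes that passed were large. Of the 707, 635 (2.90% of those tested) exceeded 2-fold, 398 exceeded 4-fold and 179 exceeded 16-fold. The gene models that rose had a median change of 4.06-fold and a median of 43.4 CPM at day 14, against 9.94 CPM at day 7. Those that fell had a median change of 6.41-fold, with a median of 2.28 CPM at day 14 and 14.8 CPM at day 7. In bulk tissue, fewer cells of a type and less RNA per cell cannot be told apart.

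In 677 of the 707, the libraries of the days did not overlap in CPM. Over all gene models tested this held for 8678, or 39.6%, with 4539 (20.7%) higher and 4139 (18.9%) lower at day 14, so a lack of overlap was common far beyond the calls. The same share was 36.5% in OP, 47.0% in GGI and 45.7% in GQ. By size the measured changes of IS were the smallest of the 4 cultivars. Over the 15960 gene models, the median absolute difference between the day means was 0.410 on the log2 scale in IS, 0.807 in OP, 0.668 in GGI and 1.13 in GQ, and 17.0% of the gene models differed by over 2-fold in IS, 42.1% in OP, 33.5% in GGI and 54.9% in GQ. Without IS day 7 replicate 2 and the 6 doubtful libraries, the medians were 0.365 in IS, 0.639 in OP, 0.566 in GGI and 0.685 in GQ, and the shares were 13.1% in IS, 31.6% in OP, 27.9% in GGI and 35.5% in GQ. That left 2 day 7 libraries each in IS, OP and GGI and 1 in GQ. With all libraries, the median standard deviation between day 7 replicates was 0.343 in IS, 0.741 in OP, 0.339 in GGI and 0.813 in GQ. At day 14 it was 0.156, 0.287, 0.354 and 0.305. A wider spread also enlarges such differences, and its part was not tested.

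The number of calls depended on which libraries entered the fit. It was 3764 (1750 higher, 2014 lower) when the 4 day 7 libraries with over 30% of reads outside genes were left out, none of which is IS, and these included all 707. It was 2156 (856 higher, 1300 lower) with DESeq2, 705 of the 707 included. Other fits held fewer of the 707. The number was 2404 in the 9 IS libraries alone, with 591 of the 707 among them. In the 6 IS libraries alone it was 1383, with 420 of the 707. With the replicate number as a block it was 317, with 307 of the 707. It was 187 without IS day 7 replicate 2, of which 171 were among the 707, and it was 143 without IS day 14 replicate 1 and 207 without IS day 14 replicate 2.

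**Figure D2:**
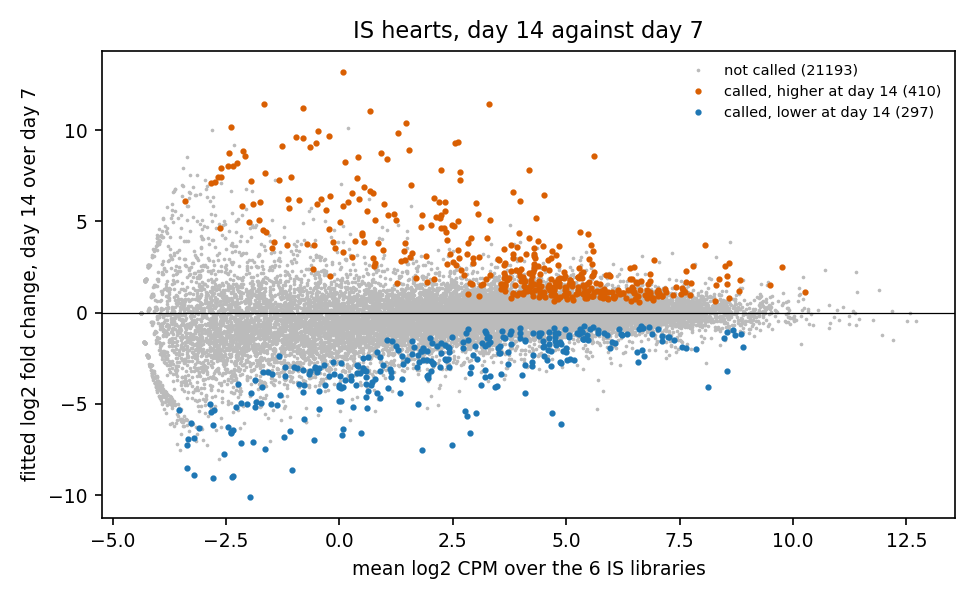
Fitted log2 fold change of IS hearts, day 14 over day 7 (vertical axis), against the mean log2 CPM over the 6 IS libraries (horizontal axis) for each of 21900 gene models. The 410 called gene models that were higher at day 14 and the 297 that were lower spread over the whole range of levels, and the fold needed for a call grows toward low levels.

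Calls were found at every level of expression. They made up 1.57% of the 4326 gene models with a mean under 1 CPM, 3.2% of those from 1 to 10 CPM, 3.67% from 10 to 100 CPM, 4.69% from 100 to 1000 CPM and 3.39% (2 of 59) at 1000 CPM and over. The balance of directions changed along the way. Between 1 and 10 CPM, 72 rose and 113 fell, whereas between 10 and 100 CPM 247 rose and 109 fell, and between 100 and 1000 CPM 64 rose and 32 fell. The median fold of a call was 10.2 in the class from 1 to 10 CPM and 2.85 in that from 100 to 1000 CPM.

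The 410 gene models that rose took 5.41%, 4.25% and 3.33% of the reads in genes in day 14 replicates 1, 2 and 3, against 1.43%, 0.987% and 1.48% in the day 7 replicates. The 297 that fell took 0.501%, 0.534% and 0.594% at day 14, against 1.47%, 3.03% and 1.69% at day 7. These sums are a description, since the gene models were chosen on the same libraries. Among the sums for the gene models that fell, the day 7 replicate 2 library held the highest, close to the 2.81%, 3.07% and 2.99% of the day 0 libraries. By the number in the ID, which the files do not explain, the share called ran from 1.95% (number 7) to 3.94% (number 9) over 17 numbers, and it was 2.08% among the 144 tested IDs outside them.

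Of the called gene models, 2 that rose and 2 that fell are named by a rule of size: the largest change in mean CPM and the largest fitted fold in each direction among those called without overlap. That their days do not overlap was thus a condition of the choice and adds no support.

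The largest rise in amount was that of V2_16g007720.1.01. It stood at 2830, 2690 and 1860 CPM in day 14 replicates 1 to 3, against 429, 86.7 and 778 CPM in the day 7 replicates. All day 14 hearts were higher than all day 7 hearts, and day 7 replicate 2 was the lowest by far. Its log2 fold change was 2.51 ± 0.66 (SE; edgeR, adjusted p = 0.0340), and it ranked 17 by mean CPM at day 14 and 235 at day 7. At day 0 it held 273, 92.5 and 74.3 CPM, so day 7 replicate 2 lay within the day 0 range. The call was lost without day 7 replicate 2 (log2 fold change 2.03, adjusted p = 0.167), without day 14 replicate 1 (0.136) and in 7 further alternatives, with adjusted p from 0.00233 to 0.167 over all 15. V2_16g007720.1.01 was called in OP (log2 fold change 3.25 ± 0.68) and not in GGI (0.97 ± 0.63) or GQ (1.2 ± 0.63). Its change in IS was not shown to differ from the mean of the others (difference of 0.7 ± 0.72, SE, edgeR, adjusted p = 0.635).

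The largest fitted rise was that of V2_14g007270.1.01, a gene model almost without reads before the second week. Day 14 replicates 1, 2 and 3 held 1680, 519 and 34.4 CPM, from 70670, 26958 and 1358 reads. Day 7 replicates held 0.332, 0.185 and 0.286 CPM, from 20, 9 and 14 reads. The day 0 libraries held 0 reads, which allows up to 0.0902 CPM, before scaling of the libraries, in the shallowest of them. The days were far apart, though the day 14 hearts themselves spread widely, with replicate 3 the lowest. The log2 fold change against day 7 was 11.41 ± 1.57 (SE; edgeR, adjusted p = 0.000124), and it was called in all 15 alternatives, with adjusted p up to 0.0319. V2_14g007270.1.01 was also called in OP (log2 fold change 10.14 ± 1.66), GGI (10.35 ± 1.58) and GQ (12.38 ± 1.91). Its mean at day 14 was 743 ± 844 CPM in IS, against 93.5 ± 61.1 CPM in OP, 76.1 ± 108 CPM in GQ and 92.7 ± 99.8 CPM in GGI (SD over 3 hearts a cultivar), and its change in IS was not shown to differ from that of the other cultivars (difference of 0.46 ± 2.53 on the log2 scale, SE; edgeR, adjusted p = 0.973).

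The largest fall in amount was that of V2_11g014030.1.01, which was at 55.0, 73.9 and 108 CPM in day 14 replicates 1 to 3, against 510, 2670 and 814 CPM in the day 7 replicates. Its rank by mean CPM was 2875 at day 14 and 30 at day 7. Every day 14 heart was below every day 7 heart. Day 7 replicate 2 was again nearest to the day 0 hearts, which held 4590, 2530 and 3090 CPM. The log2 fold change was -4.07 ± 1.07 (SE; edgeR, adjusted p = 0.0341). It was -3.06 without day 7 replicate 2, where the call was lost (adjusted p = 0.184), as it was in 5 further alternatives, each without a day 14 library, with the replicate block or without 5 libraries; the range was 0.000288 to 0.191. V2_11g014030.1.01 was called in OP (-4.22 ± 1.08) and GQ (-4.07 ± 1.07) and not in GGI (-1.93 ± 0.98; edgeR, adjusted p = 0.139).

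The largest fitted fall was that of V2_06g001990.1.01, at 0.0949, 0.809 and 1.57 CPM in day 14 replicates 1 to 3, against 13.8, 323 and 34.7 CPM in the day 7 replicates. The groups did not overlap, and day 7 replicate 2 held most of the day 7 reads, 15682 of 18213. At day 0 the gene model held 30.1, 30.4 and 66.0 CPM. The log2 fold change was -7.23 ± 1.45 (SE; edgeR, adjusted p = 0.00556), and -4.88 without day 7 replicate 2, where the call was lost (adjusted p = 0.0558). The range over the alternatives was 1.87e-09 to 0.0578, with the call also lost without day 14 replicate 1 and in the fit of the 6 libraries alone. V2_06g001990.1.01 was also called as lower at day 14 in OP (log2 fold change -3.92 ± 1.23, SE; edgeR, adjusted p = 0.0188) and GQ (-5.14 ± 1.31; adjusted p = 0.00214). It was not called in GGI, where it held 14.0 ± 13.1 CPM at day 14 and 12.3 ± 17.1 CPM at day 7 (SD, n = 3 each). The difference between IS and the mean of the others was -4.27 ± 1.39 on the log2 scale (SE), which did not pass (edgeR, adjusted p = 0.0837). It was -1.92 without IS day 7 replicate 2 (adjusted p = 0.389), and it passed with DESeq2 (-4.25, adjusted p = 0.0118); over the alternatives adjusted p lay between 0.0118 and 0.389.

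**Figure D3:**
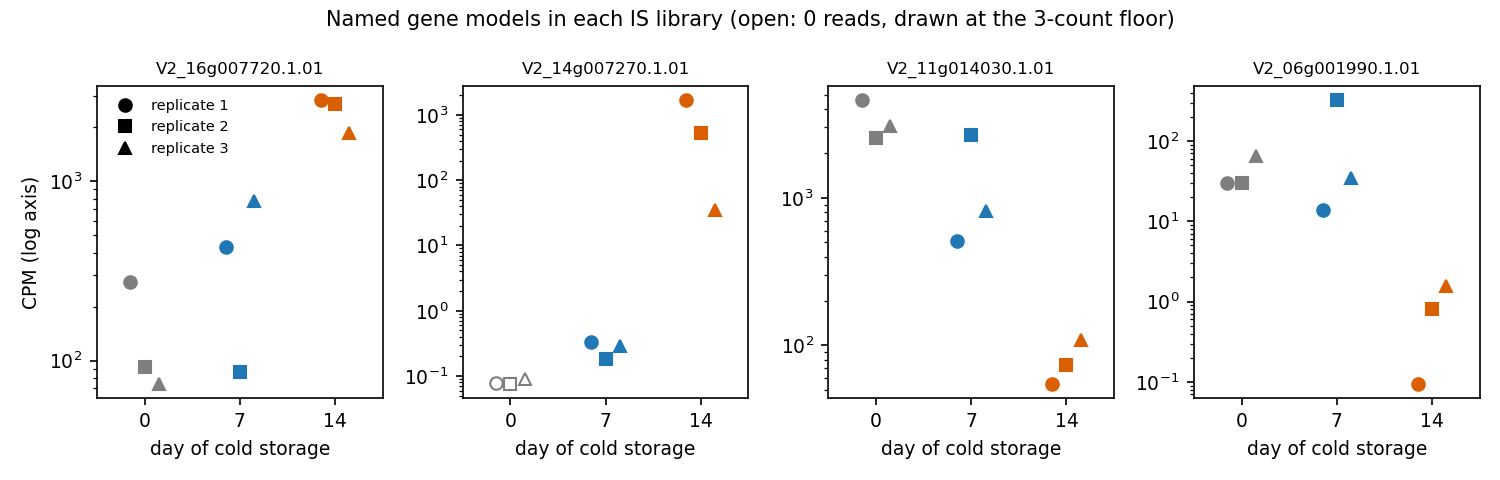
CPM (log axis) of the 4 named gene models in each IS library by day of cold storage, shape by replicate number. Open symbols mark 0 reads, drawn at the floor of 3 counts before scaling of the libraries. In each panel the day 14 hearts lie outside the range of the day 7 hearts, which the naming rule required. In V2_16g007720.1.01 and V2_11g014030.1.01 day 7 replicate 2 lies among the day 0 hearts.

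IS and the other cultivars share no library, so the second-week changes can be set side by side. The same fit called 6061 gene models in OP (27.7%; 14.5% higher, 13.2% lower), 10792 in GQ (49.3%; 26.6% higher, 22.7% lower) and 6217 in GGI (28.4%; 14.7% higher, 13.7% lower). With those 4 day 7 libraries left out, the numbers called were 3764 in IS (16.6%), 7965 in OP (35.1%), 8004 in GGI (35.3%) and 6743 in GQ (29.7%). IS had the fewest calls in both fits. Each cultivar fitted on its own 6 libraries gave 1383 in IS, 1701 in OP, 3085 in GGI and 4646 in GQ.

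Of the 707 IS calls, 493 were called in the same direction in OP, which is 69.7% of the IS calls and 8.13% of the OP calls. In GGI 531 were (75.1% and 8.54%) and in GQ 530 (75% and 4.91%). Of all gene models tested, 27.7% were called in either direction in OP, 28.4% in GGI and 49.3% in GQ. The calls of all cultivars use the same spread estimate per gene model, so these are not matched baselines. The shares of the IS calls depended on the libraries: without the 6 doubtful libraries, where IS had 4246 calls, they were 63.4% in OP, 55.9% in GGI and 42.3% in GQ, against 37.2% of all gene models called in either direction in OP, 25.8% in GGI and 24.3% in GQ. With all libraries, calls in the opposite direction numbered 3 in OP, 3 in GGI and 11 in GQ. All 3 other cultivars shared 371 of the 707 (52.5%), 250 that rose and 121 that fell, and 65 were called in none of them. Over all 21900 gene models tested, 1403 rose and 883 fell in all 3 other cultivars. Across all gene models the log2 fold change of IS correlated with that of OP at r = 0.532, of GGI at 0.538 and of GQ at 0.481; gene models are not independent replicates. Without IS day 7 replicate 2 these were 0.370, 0.440 and 0.326.

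Gene models picked by their calls in the other cultivars show the IS hearts one by one. In OP, GGI and GQ alike, 1403 gene models rose and 883 fell between day 7 and day 14. The fitted change of IS had the same sign in 1328 of the 1403 (94.7%) and in 854 of the 883 (96.7%). The median log2 fold change was 0.89 in IS and 2.37 in the mean of the others for the first set, and -1.15 and -2.45 for the second. The sizes in the other cultivars are those the sets were picked on. Over all gene models the median change in IS was -0.0234. In IS, 250 of the 1403 (17.8%) and 121 of the 883 (13.7%) were called, against 3.23% of all gene models. The fit gives each gene model 1 spread estimate from all libraries, used both for the choice and for the IS call. The choice thus favours gene models that are easier to call, and the share of all gene models is not a matched baseline. With the same 4 day 7 libraries left out, these shares were 44.5% of 1540 and 50.3% of 1189, against 16.6%. Without IS day 7 replicate 2, they were 5.88% of 1479 and 1.80% of 943, against 0.839%. In that fit the IS medians were 0.67 and -0.66, and the shares with the same sign were 88.9% and 86.2%.

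Against the IS day 0 mean, the median level of the 1403 gene models was higher by 1.77, 1.68 and 1.40 on the log2 scale in IS day 14 replicates 1 to 3, and by 0.86, 0.01 and 0.86 in the day 7 replicates. That of the 883 gene models was at -1.74, -1.72 and -1.39 at day 14 and at -0.80, -0.02 and -0.85 at day 7. The median of day 7 replicate 2 was thus near the day 0 mean for both sets, with quartiles of -0.39 to 0.57 and -0.77 to 0.55. The medians of the 2 other day 7 hearts lay about midway between day 0 and day 14. On the position scale, which used a different set of gene models, these 2 lay at 0.563 and 0.536. Replicate 2 lay there at 0.174, beyond the IS day 0 hearts at -0.0209 to 0.0393.

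**Figure D4:**
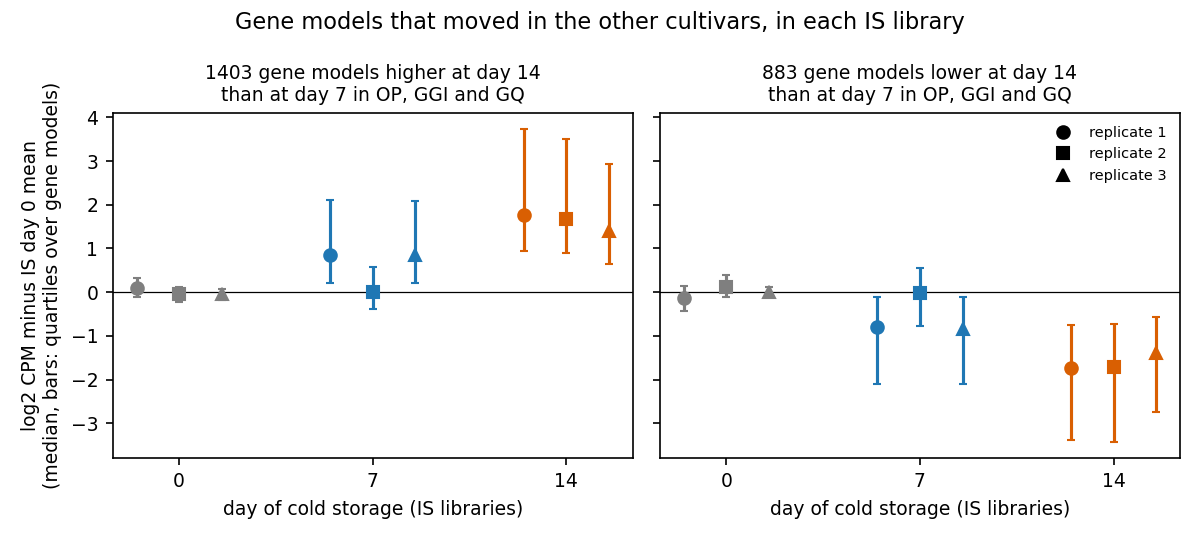
Median log2 CPM of each IS library minus the IS day 0 mean, with quartiles over gene models as bars, for 1403 gene models that rose and 883 that fell from day 7 to day 14 in OP, GGI and GQ. Day 7 replicate 2 (square) lies at 0.01 and -0.02, the other day 7 hearts at 0.86 and at -0.80 and -0.85, and the day 14 hearts farther out.

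Whether the second-week change of IS differed from the mean of the other cultivars was tested in the same fit. The difference passed for 652 gene models, or 2.98%; the IS change lay below that of the others in 482 (2.2%) and above it in 170 (0.776%). The 482 had a median log2 fold change of 0.19 in IS and 3.36 in the others. In 274 of them the fitted IS value had the same sign and was smaller, and in 207 it had the opposite sign. The 170 had a median of 0.30 in IS and -1.81 in the others, with 55 smaller values of the same sign and 104 of opposite sign. Of the 652, 41 (6.29%) were called in IS itself, 21 of the 482 (4.36%) and 20 of the 170 (11.8%), against 3.23% of all gene models. These sizes, signs and shares are a description, since the sets were picked on the same changes. The tested difference contains the IS change, so that choice itself favours IS calls. The count depended on the fit. It was 1625 without IS day 7 replicate 2, with 615 of the 652 among them, and 1097 with the 4 day 7 libraries high in reads outside genes left out. It was 56 in a fit of the day 7 and day 14 libraries alone, and between 50 and 131 when any other of the 6 IS libraries was left out.

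**Figure D5:**
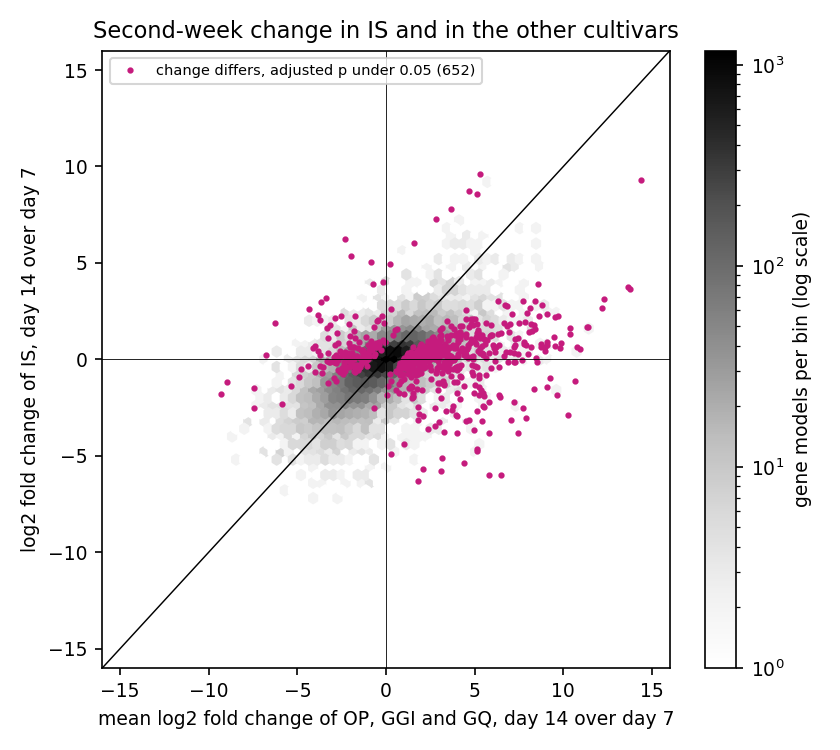
Fitted log2 fold change of IS, day 14 over day 7 (vertical axis), against the mean of OP, GGI and GQ (horizontal axis); grey bins count all gene models on a log scale, coloured points mark the 652 whose change differed, and the diagonal marks equal change. Most coloured points lie below the diagonal on the right, where the other cultivars rose and the IS values stay near 0; 1 gene model lies outside the axes.

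For context within IS, the fit called 2789 gene models between day 7 and day 0 (12.7%; 8.31% higher, 4.42% lower at day 7) and 7161 between day 14 and day 0 (32.7%; 17.2% higher, 15.5% lower at day 14). These comparisons share libraries with the second-week comparison, and no overlap between them was computed.

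Few gene models went from silent to active. Only 11 were under 0.1 CPM in all day 7 libraries and over 1 CPM in all day 14 libraries, with mean levels of 1.93 to 45.3 CPM at day 14 (median 9.67) and 30 reads in all at day 7. Of the 11, 10 were called, against 3.23% of all gene models tested, but they were picked on the same libraries that the call tests. Among the 11, 5 were also under 0.1 CPM in all IS day 0 libraries, and none was over 1 CPM in all of them. At day 14, 9 of the 11 were over 1 CPM in all OP libraries, 7 in GGI and 6 in GQ. Many were not silent there at day 7, when 4 were under 0.1 CPM in all OP libraries, 0 in GGI and 6 in GQ. By the same rule, 4 of the 11 turned on in OP, 0 in GGI and 3 in GQ. In the reverse direction there was 1, at a mean of 4.00 CPM at day 7, which was not called. OP had 88 turned on and 21 turned off by the same rule, GGI 27 and 25, and GQ 102 and 49. Without IS day 7 replicate 2 the IS counts were 20 and 11, and without day 14 replicate 3 they were 25 and 9. Those turned off numbered 7 without day 7 replicate 1 and 5 without day 7 replicate 3.

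The breadth of the transcript pool was compared over 5 measures, none of which can pass at 3 against 3. Gene models at 1 CPM or more numbered 16881, 16829 and 16989 in day 14 replicates 1 to 3, against 17351, 17228 and 17340 in the day 7 replicates. The day 14 hearts were all lower, with a difference in means of -407 (exact permutation test, two-sided, p = 0.10, the smallest that 3 against 3 allows; adjusted p = 0.25 over the 5). The 10 most abundant gene models of each library took 5.36%, 5.00% and 5.39% of the reads at day 14, against 6.52%, 7.75% and 5.74% at day 7, without overlap (exact permutation p = 0.10). The 100 most abundant took 18.1%, 17.2% and 17.2%, against 17.4%, 20.9% and 18.1%, with overlap (exact permutation p = 0.30).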

How the data were processed

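The authors deposited 1 table per library with whole-number counts of reads per gene model, not normalized, and 5 summary rows for reads in no gene model. STAR and cutadapt are named in the submitters' processing notes. Their versions, the counting tool, genome build, annotation and strand setting were not given in the sources used here, so counts of overlapping or near-identical gene models are uncertain. The summary rows, 14.6% to 19.1% of the reads listed in the 6 IS libraries, were left out. No replicate pair of a day agreed within sampling noise (chi-square per degree of freedom at least 64.5).

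The filterByExpr rule (12 groups, count at least 10, total at least 15) left 21900 gene models, which were scaled by TMM and fitted with edgeR 4.0.16 (limma 3.58.1, R 4.3.3; glmQLFit robust, glmQLFTest) as 12 group means over the 36 libraries; DESeq2 1.42.0 was an alternative. SE is the absolute log2 fold change over the square root of F. CPM use TMM scaling; log2 CPM use a prior count of 2. Positions are projections of log2 CPM on the fitted day 14 against day 0 changes of the other 3 cultivars, over called gene models of log2 CPM at least 1. Floors are 3 counts per M reads in gene models without TMM scaling, unlike the CPM, and cover counting error only.

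On simulated counts of the 36 libraries, 8 of 100 2-fold and 51 of 100 4-fold changes in IS were recovered over 21681 gene models. In that fit, 1 of 60 calls was of an unchanged gene model. In the fit of the 6 libraries alone, 0 and 1 were recovered. This smaller fit made 1 call on the simulated counts and 1383 on the data. Each simulated gene model had the same spread in every group, and no simulated heart stood apart. The simulation therefore does not give the error rate or the power for these data.

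Named gene models were called, without overlap between days, and first by change in mean CPM or by fitted fold, the fold only where log2 CPM averaged 1 or more and the lower day held 10 reads or more. The comparison, rules and alternatives were chosen with earlier results of these data known; the position scale, the alternatives that combine IS day 7 replicate 2 with other omissions, and the changes and steps without doubtful libraries were chosen after seeing the data.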

Additional observations from a re-analysis of the deposited data

Results flagged for a closer look

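The second-week change of IS differed from the mean of OP, GGI and GQ in 652 gene models, by a test of the difference itself (edgeR quasi-likelihood test, adjusted p under 0.05). None of the 4 named gene models was among them.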

How the results depend on the processing

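The 707 calls between day 14 and day 7 (635 over 2-fold) were 317 (303) with the replicate number as a block, 3764 (2227) without the 4 day 7 libraries over 30% of reads outside genes, 1383 (1072) in the 6 IS libraries alone, 2404 (1678) in the 9 IS libraries, 2503 (1634) in those without day 7 replicate 2, 1797 (1079) without the 4 libraries and day 7 replicate 2, and 2156 (1800) with DESeq2. Leaving out 1 library gave 143 to 592 (142 to 570). RLE scaling (364 higher, 356 lower) and no filter stayed within 1.5 times. The balance of 410 higher and 297 lower turned with DESeq2 (856, 1300), in the 6 (683, 700) and 9 (1129, 1275) IS libraries, in the 9 without day 7 replicate 2 (1208, 1295), without the 4 libraries (1750, 2014), and without day 7 replicate 1 (282, 310) or 3 (243, 279). The 652 differences from the other cultivars were 146 with the block, 1097 without the 4 libraries, 2954 also without IS day 7 replicate 2, 2083 with DESeq2, 56 with the day 7 and day 14 libraries alone, and 50 to 1625 with 1 IS library left out. The block, whose numbers do not pair the hearts (same-number deviations correlated at -0.00409, -0.276 and -0.416), lost the calls of V2_16g007720.1.01 (adjusted p = 0.0512) and V2_11g014030.1.01 (0.0899). All 4 named gene models kept their direction in all 15 alternatives. Their differences from the other cultivars, none called at first, turned in sign for V2_14g007270.1.01 (0.46 at first, -0.44 with the block, and -0.97 to 1.02 with 1 IS library left out, lowest without day 14 replicate 1) and V2_11g014030.1.01 (-0.67 at first, -1.05 to 0.34 with 1 IS library left out, highest without day 7 replicate 2, and 0.81 also without the 4 libraries). Gene models turned on numbered 11 to 25 and turned off 1 to 11 with 1 library left out; at an on level over 2 CPM, 9 and 0. The difference in gene models detected (-406.7) was -480.3 without TMM scaling, -483.3 when also thinned to equal depth, and -451.3 to -371.3 with 1 library left out. The difference in the share of the 100 most abundant ran from -2.02 to -0.256 percentage points. The cause of the other shifts was not tested. At these depths, V2_14g007270.1.01 at day 7 rests on 9 to 20 reads a library.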
